A study of Mus musculus with 8 samples.

Results

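The mRNAs of the Rab GTPase family were followed through immunoprecipitation (IP) of RNA-bound protein from mouse embryonic stem (ES) cells. Members were taken by gene name, that is, every gene on the array whose name is Rab followed by a number and at most a letter and a further digit. This gave 55 Rab genes out of 27949 genes on the array, covered by 103 of 41174 probes. The probe with the highest mean intensity over the 8 arrays stood for each gene, and 48 further probes of the 35 genes with more than 1 probe served as a check. Tests were run on the 48 members whose probe was well above background throughout at least 1 group of arrays. For 41 of them this held on all 8 arrays.

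Rab proteins are small GTPases that switch between a GTP-bound state on a membrane and a GDP-bound state that a carrier protein can lift off again. Each marks a particular organelle or vesicle and recruits effectors that tether, move or fuse it, while exchange factors (GEFs) switch it on and GTPase-activating proteins (GAPs) switch it off. The escort protein REP and a geranylgeranyl transferase attach the lipid anchor of newly made Rabs, and GDI proteins recycle them. Many Rabs exist as sets of close relatives encoded by separate genes with similar proteins.

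The cells were a re-derived transgenic ES line named Dazl-GFP, kept on γ-irradiated embryonic fibroblast feeders in DMEM with 15% serum, leukemia inhibitory factor and 2i, the pair of 1 µM PD0325901 against MEK and 3 µM CHIR99021 against GSK3β. All 3 groups shared this line and medium: 3 arrays of RNA recovered with an antibody against GFP (GFP IP), 2 arrays of RNA recovered with an antibody against the poly(A) binding protein PABP1 (PABP1 IP) and 3 arrays of total RNA without IP (Input). DAZL binds mRNAs in germ cells, and PABP1 binds poly(A) tails. The IPs were native. A control-antibody IP was not analysed here. The labels do not say whether GFP is joined to DAZL in this line, and all material comes from 1 line. The labels name no separate cultures behind the arrays of a group. The p-values therefore cover the spread among these samples only, and that spread may be technical.

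Each value below is a log2 level, the log2 processed intensity minus the 75th percentile of its array, so it describes an mRNA's standing within its own RNA sample. Differences are on the same log2 scale and carry the standard error (SE) of limma. A gene is said to have risen or fallen where limma's adjusted p over all 14745 tested genes was below 0.05. Between 41.5% and 52.6% of the 43379 spots of an array were well above background, and arrays of a group correlated at 0.975 to 0.993 across genes. Dazl mRNA stood at 3.13, 3.84 and 3.27 in the GFP IPs, at -2.12 and -2.09 in the PABP1 IPs and at -0.23, -0.36 and -0.61 in the Inputs. It was 14.1-fold higher in the GFP IPs than in the Inputs (adjusted p = 2.162e-05). All 9 ES cell markers on the array, of 10 listed, were well above background on all Inputs, and all 10 feeder fibroblast markers were well above background on all 8 arrays. The mean log2 level over the feeder markers ran from 2.77 to 3.38 in the GFP IPs, from 4.26 to 4.37 in the PABP1 IPs and from 3.75 to 4.09 in the Inputs. Against Input, 1 of the 10 was higher and 8 lower in the GFP IPs, and 3 were higher and 1 lower in the PABP1 IPs. The mean over the ES markers ran from 4.84 to 4.98 in the GFP IPs, from 4.55 to 4.58 in the PABP1 IPs and from 4.21 to 4.29 in the Inputs. Against Input, 5 of these 9 were higher and 1 lower in the GFP IPs, and 4 were higher and 1 lower in the PABP1 IPs. Between the IPs 5 were higher and 3 lower in the GFP IPs. Of all tested genes, 21.5% and 43.3% were higher and lower in the GFP IPs over Input. The shares were 34.3% and 25.3% in the PABP1 IPs over Input and 23.9% and 47.4% between the IPs. The share that feeder RNA has in the Rab differences was not tested. In these bulk samples, what was recovered from feeders and from ES cells cannot be told apart. Neither cell numbers nor RNA per cell were measured.

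In the GFP IPs, the differences of the Rab mRNAs from Input spread on both sides of 0, from -1.15 to 3.07. Those that rose were led by Rab1, Rab2b, Rab6, Rab11b and Rab18, with differences of 2.17 to 3.07. Those that fell were led by Rab33a, Rab8a, Rab37 and Rab34, with differences of -1.15 to -1.02. Of 48 tested members, 18 rose, 14 fell and 16 were not called. Across all tested genes 21.5% rose and 43.3% fell, 64.7% in all. Of the 48, 7 were not detected on all 8 arrays, and some of these entered the tests only through a group in which they were high. A fit to genes detected on all 8 arrays gave 15 higher and 14 lower of 41 members, beside 23.3% and 49.7% of all genes. The median Rab difference was 0.12, against -0.51 for all tested genes, and 38 of 48 members lay above the median gene. The zero point of this comparison depends on the scaling. With arrays scaled to their median, which moves the median of all genes to 0.024, 30 Rab mRNAs were higher and 3 lower (Rab33a, Rab34 and Rab8a), beside 30.5% and 21.1% of all genes. The Rab median lay 0.63 above the median gene under either scaling. The GFP IP and Input arrays did not overlap for 32 members (69.3% of all genes). The arrays lay on 2 slides. Within slide 1, with 1 GFP IP and 2 Inputs, the median Rab difference was 0.19, against -0.46 for all genes. Within slide 2, with 2 GFP IPs and 1 Input, it was 0.25, against -0.42. A fit over all arrays that blocked on slide called 20 higher and 14 lower, beside 24.6% and 50.9% of all genes. Where a call within a slide is mentioned, a lone array was assumed to vary like the rest.

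In the PABP1 IPs, most Rab mRNAs rose. Of 48 tested members, 35 rose, 2 fell (Rab22a and Rab6b) and 11 were not called, where 34.3% of all tested genes rose and 25.3% fell, 59.6% in all. In the fit to genes detected on all 8 arrays, 33 were higher and 2 lower of 41, beside 38.1% and 29.5% of all genes. Rab28, Rab4a, Rab21 and Rab4b led, with differences of 2.03 to 2.53. The median Rab difference was 0.97, against 0.24 for all tested genes. The 2 PABP1 IP arrays did not overlap the Inputs for 40 members (70.8% of all genes). Within slide 1 the median Rab difference was 0.94, against 0.28 for all genes, and within slide 2 it was 1.06, against 0.26. Blocking on slide, 37 rose and 2 fell, beside 43.2% and 30.6% of all genes.

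Set directly against each other, the GFP IPs held less of most Rab mRNAs than the PABP1 IPs: 33 members fell, 11 rose and 4 were not called, where 47.4% of all tested genes fell and 23.9% rose, 71.4% in all. The median Rab difference was -0.94, against -0.67 for all tested genes, a gap of -0.27 to the median gene. With arrays scaled to their median, 14 members were higher and 22 lower, beside 29.4% and 33% of all genes. Among genes detected on all 8 arrays, 9 were higher and 30 lower of 41, beside 25.7% and 50.6% of all genes. The groups did not overlap for 46 members (80.7% of all genes). Within slide 1 the Rab median was -0.96, against -0.66 for all genes, and within slide 2 it was -0.88, against -0.62. The fit blocked on slide called 11 higher and 33 lower, beside 27% and 55.8% of all genes. The 3 comparisons share arrays, so the values of a member in them are given side by side and are not independent of each other.

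**Figure D1:**
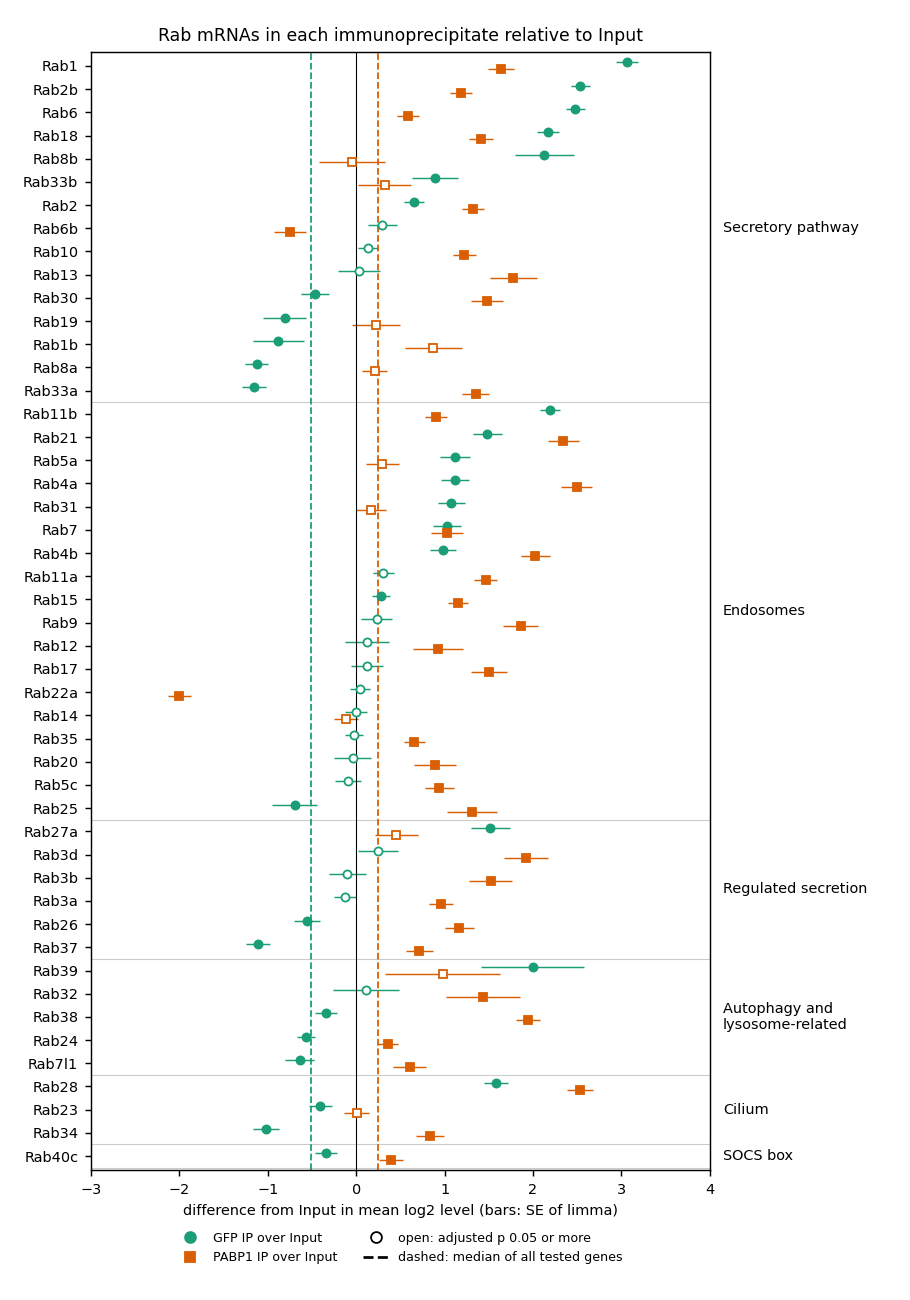
Difference in mean log2 level of each of the 48 tested Rab mRNAs from Input (x axis, log2 scale), for the GFP IPs (circles) and the PABP1 IPs (squares), ordered by role; bars are the SE of limma, open symbols were not called, and dashed lines mark the medians of all tested genes at -0.51 (GFP IP) and 0.24 (PABP1 IP). Rab1, Rab2b, Rab6, Rab18 and Rab11b lie highest for the GFP IPs while most PABP1 IP symbols lie right of 0; with arrays scaled to their median, 3 in place of 14 members are lower in the GFP IPs.

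**Figure D2:**
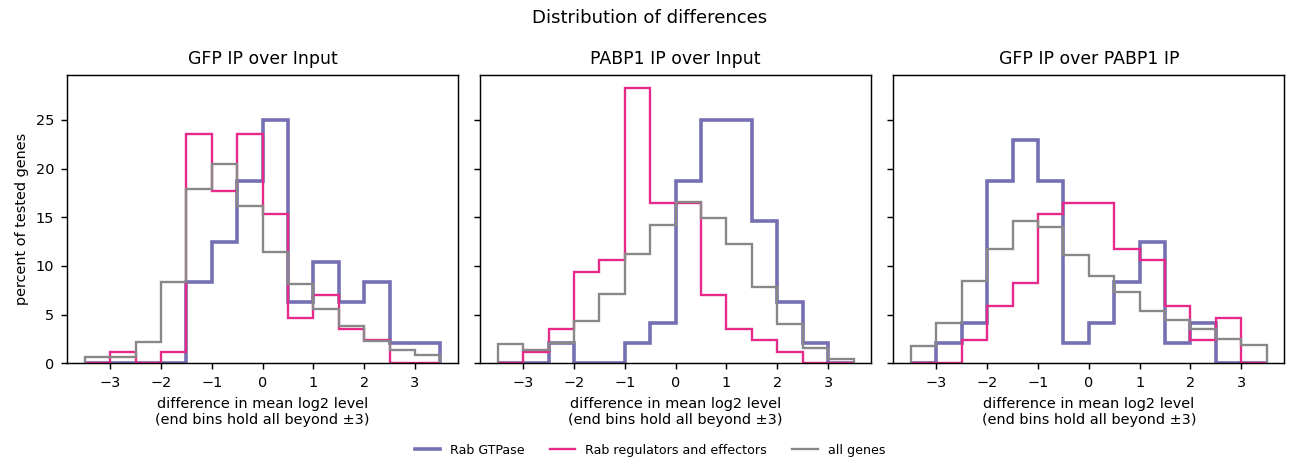
Percent of tested genes (y axis) by difference in mean log2 level (x axis, bins of 0.5, end bins open) for 48 Rab mRNAs, 85 mRNAs of Rab regulators and effectors, and all 14745 tested genes. The Rab medians are 0.12, 0.97 and -0.94 from left to right, against -0.51, 0.24 and -0.67 for all genes and -0.46, -0.53 and 0.06 for the regulators and effectors; with arrays scaled to their median, the regulator median for the GFP IP over Input is 0.075.

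The Rabs of the secretory pathway, which serve traffic between the endoplasmic reticulum (ER), the Golgi and the cell surface, held both the mRNAs that rose most in the GFP IPs and several that fell. Of 15 tested, 7 rose and 5 fell in the GFP IPs over Input (21.5% and 43.3% of all genes). In the PABP1 IPs over Input 9 rose and 1 fell (34.3% and 25.3% of all genes). Between the IPs 6 were higher and 8 lower in the GFP IPs (23.9% and 47.4% of all genes). These counts hold Rab8b and Rab13, which entered the tests only through the GFP IPs and only through the PABP1 IPs, where they were high. Rab1, the array's name for Rab1a, which drives ER-to-Golgi transport, stood at 6.42, 6.43 and 6.56 in the GFP IPs, 5.12 and 4.97 in the PABP1 IPs and 3.56, 3.43 and 3.23 in the Inputs. The 3 groups were stepwise apart with no overlap. Rab1 was 8.37-fold higher in the GFP IPs than in the Inputs (difference 3.07, SE 0.13, adjusted p = 1.379e-05) and 2.69-fold higher than in the PABP1 IPs (1.43, SE 0.14, adjusted p = 9.985e-05). It was also higher in the PABP1 IPs than in the Inputs, by 1.64 (SE 0.14, adjusted p = 8.733e-05).

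Rab6, the Golgi Rab of retrograde transport, stood at 5.47, 5.58 and 5.40 in the GFP IPs, 3.54 and 3.65 in the PABP1 IPs and 3.02, 3.06 and 2.95 in the Inputs. It was among the members most skewed to the GFP IPs, 5.57-fold over Input (2.48, SE 0.11, adjusted p = 1.464e-05) and 3.71-fold over the PABP1 IPs (1.89, SE 0.12, adjusted p = 1.626e-05), with 1.50-fold over Input in the PABP1 IPs (adjusted p = 0.004466). Rab2b, a relative of the Golgi Rab2a, stood at 2.20, 2.25 and 2.31 in the GFP IPs, 0.85 and 0.96 in the PABP1 IPs and -0.40, -0.16 and -0.29 in the Inputs. Its groups were again stepwise apart, at 5.81-fold for the GFP IPs over Input (2.54, SE 0.11, adjusted p = 1.464e-05) and 2.28-fold for the PABP1 IPs over Input (1.19, SE 0.13, adjusted p = 0.0001901). Rab18, found on the ER and on lipid droplets, stood at 4.66, 4.64 and 4.57 in the GFP IPs, 3.95 and 3.78 in the PABP1 IPs and 2.58, 2.52 and 2.27 in the Inputs. It was 4.49-fold higher in the GFP IPs than in the Inputs (2.17, SE 0.12, adjusted p = 2.327e-05), 2.66-fold higher in the PABP1 IPs than in the Inputs (1.41, SE 0.14) and 1.69-fold higher in the GFP IPs than in the PABP1 IPs (0.76, SE 0.14, adjusted p = 0.002032).

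At the other end, Rab33a, a relative of the Golgi Rab33b, stood at -1.44, -1.12 and -1.27 in the GFP IPs, 1.15 and 1.31 in the PABP1 IPs and 0.00, -0.09 and -0.27 in the Inputs. The GFP IPs were lowest, the PABP1 IPs highest and the Inputs between them, and the 5.68-fold gap between the IPs (-2.51, SE 0.15, adjusted p = 1.418e-05) was the widest called difference between the IPs among the members tested. Against Input, Rab33a differed by -1.15 in the GFP IPs (adjusted p = 0.0003138) and by 1.35 in the PABP1 IPs (adjusted p = 0.0002534). Rab30, another Golgi Rab, stood at -1.53, -2.12 and -1.86 in the GFP IPs, 0.14 and 0.07 in the PABP1 IPs and -1.32, -1.47 and -1.33 in the Inputs. Its gap between the IPs was -1.94 (SE 0.18, adjusted p = 7.483e-05), while its difference of -0.47 between the GFP IPs and the Inputs turned to 0.069 with arrays scaled to their median. Rab13, a Rab of cell junctions, stood at -3.56, -2.88 and -3.72 in the GFP IPs, -1.54 and -1.75 in the PABP1 IPs and -3.63, -3.19 and -3.44 in the Inputs. It was above background on 2 GFP IPs, both PABP1 IPs and 1 Input. It rose by 1.78 in the PABP1 IPs over Input (SE 0.27, adjusted p = 0.001027), and was not called for the GFP IPs over Input (0.03, SE 0.24).

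Rab8a, which carries Golgi vesicles to the cell surface and the cilium, stood at 1.25, 1.31 and 1.11 in the GFP IPs, 2.71 and 2.41 in the PABP1 IPs and 2.30, 2.47 and 2.28 in the Inputs. It fell by 1.13 in the GFP IPs over Input (SE 0.13, adjusted p = 0.0002942) and was not called in the PABP1 IPs (0.21, SE 0.15), whose arrays overlapped the Inputs. Its relative Rab8b stood at -3.11, -3.80 and -3.15 in the GFP IPs, -5.71 and -5.35 in the PABP1 IPs and -4.87, -5.49 and -6.08 in the Inputs. The Rab8b probe was detected on the 3 GFP IPs and was not well above background on any PABP1 IP or Input, so Rab8b entered the tests through the GFP IPs alone. Only a bound can be given, against the dimmest signal well above background on each dim array. By this bound Rab8b was at least 1.01-fold higher in the GFP IPs than in the Inputs and at least 1.58-fold higher than in the PABP1 IPs. Limma's adjusted p of 0.001213 and 0.001503 rest on the measured signals of the dim arrays, not on the bounds. Another Rab8b probe was above background on 1 PABP1 IP and no GFP IP and gave -2.41 between the IPs, and the remaining one, above background on 1 GFP IP, gave 0.05. With the mean of all probes the difference between the IPs was -0.061. Rab10, which moves glucose transporters to the surface, was not called in the GFP IPs over Input (0.13) and rose by 1.22 in the PABP1 IPs. Rab33b, above background on 1 Input, rose by 0.89 in the GFP IPs over Input and was not called in the PABP1 IPs (0.32). Rab19 fell by 0.81 in the GFP IPs (adjusted p = 0.02131) and was not called in the PABP1 IPs (0.22).

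The Rabs of endosomes, which serve uptake, recycling and delivery to lysosomes, mostly rose in the PABP1 IPs. Of 18 tested, 8 rose and 1, Rab25, fell in the GFP IPs over Input (21.5% and 43.3% of all genes). In the PABP1 IPs over Input 14 rose and 1, Rab22a, fell (34.3% and 25.3% of all genes). Between the IPs 4 were higher and 12 lower in the GFP IPs (23.9% and 47.4% of all genes). The median differences of these Rabs were 0.26, 0.98 and -0.87. Rab11b, a Rab of recycling endosomes, stood at 4.17, 3.93 and 3.99 in the GFP IPs, 2.77 and 2.72 in the PABP1 IPs and 1.87, 1.83 and 1.82 in the Inputs. It followed the stepwise order of Rab1, 4.57-fold higher in the GFP IPs than in the Inputs (2.19, SE 0.11, adjusted p = 1.792e-05) and 2.44-fold higher than in the PABP1 IPs (1.29, SE 0.12, adjusted p = 7.717e-05). With a second Rab11b probe, above background on all arrays, the IPs overlapped, with a difference of 0.31 between them. Rab4a, which marks the rapid return route from early endosomes, stood at 2.61, 2.11 and 2.49 in the GFP IPs, 3.68 and 3.87 in the PABP1 IPs and 1.33, 1.18 and 1.33 in the Inputs. Here the PABP1 IPs were highest, 5.64-fold over Input (2.50, SE 0.18, adjusted p = 3.949e-05), and the GFP IPs lay between, 2.17-fold over Input (1.12, SE 0.16, adjusted p = 0.0007075).

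Rab4b kept the same order, with 3.08, 2.95 and 2.81 in the GFP IPs, 4.11 and 3.89 in the PABP1 IPs and 2.08, 2.08 and 1.75 in the Inputs. It differed from Input by 0.98 in the GFP IPs (SE 0.15) and by 2.03 in the PABP1 IPs (SE 0.16, adjusted p = 6.192e-05). Rab21, a Rab of integrin uptake, stood at 1.55, 1.63 and 1.36 in the GFP IPs, 2.52 and 2.23 in the PABP1 IPs and 0.22, 0.10 and -0.22 in the Inputs. Both IPs lay above all Inputs, by 1.48 for GFP (SE 0.16, adjusted p = 0.0002264) and by 2.35 for PABP1 (SE 0.18, adjusted p = 5.459e-05). The gap of -0.86 between the IPs turned to 0.041 when all probes of Rab21 were averaged. Rab7, the Rab of late endosomes and lysosomes, stood at 2.64, 2.81 and 2.46 in the GFP IPs, 2.78 and 2.49 in the PABP1 IPs and 1.77, 1.66 and 1.39 in the Inputs. It was 2.04-fold higher than Input in each IP (adjusted p = 0.001146 for GFP and 0.002056 for PABP1), and the IPs overlapped, with a difference of 0.00 between them (SE 0.18, adjusted p = 0.9898).

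Rab9, which returns cargo to the trans-Golgi, stood at 2.75, 3.05 and 2.73 in the GFP IPs, 4.56 and 4.38 in the PABP1 IPs and 2.80, 2.73 and 2.29 in the Inputs. The GFP IPs overlapped the Inputs (0.23, SE 0.18, adjusted p = 0.2671) and the PABP1 IPs lay above both, by 1.86 over Input (SE 0.20, adjusted p = 0.0001894). Rab25, an epithelial relative of Rab11, stood at -1.46, -0.93 and -1.45 in the GFP IPs, 0.85 and 0.60 in the PABP1 IPs and -0.20, -0.49 and -1.07 in the Inputs. Its gap of -2.00 between the IPs (SE 0.29, adjusted p = 0.0006042) was kept in all 21 alternative settings, while its difference of -0.69 between the GFP IPs and the Inputs (adjusted p = 0.04659), whose arrays overlapped, was lost in 14 of them. Of the rest, Rab15, Rab17, Rab20, Rab12 and Rab35 rose by 0.66 to 1.50 in the PABP1 IPs over Input and differed by -0.04 to 0.29 in the GFP IPs, where only Rab15 was called (0.29, adjusted p = 0.04125). That Rab15 call was lost in 14 of 21 alternative settings. Rab14, of the Golgi and endosomes, was not called in any comparison, with differences of 0.00 in the GFP IPs and -0.12 in the PABP1 IPs. With the mean of all its probes the GFP value was -0.93 and was called. That mean includes a probe above background on the Inputs only, which gave -3.85. A further Rab14 probe, above background on all arrays, gave 1.065 for the GFP IPs over Input.

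Among the Rabs of regulated secretion, which dock secretory vesicles and granules, 1 rose and 2 fell of 6 tested in the GFP IPs over Input (21.5% and 43.3% of all genes). In the PABP1 IPs over Input 5 rose and none fell by limma (34.3% and 25.3% of all genes). The IPs did not overlap for any of the 6, where this held for 80.7% of all genes. In the GFP IPs 1 was higher and 5 lower than in the PABP1 IPs (23.9% and 47.4% of all genes). The median difference was -1.65, against -0.67 for all genes. Rab27a, which tethers melanosomes and granules, stood at -0.29, -0.84 and -1.10 in the GFP IPs, -1.80 and -1.81 in the PABP1 IPs and -2.25, -2.07 and -2.47 in the Inputs. It was the member of the group that rose in the GFP IPs, with 2 of 3 Inputs above background, 2.86-fold over Input (1.52, SE 0.22, adjusted p = 0.0008086), with 0.45 in the PABP1 IPs (adjusted p = 0.149). Rab3d, a granule Rab, stood at -0.36, -0.13 and -0.50 in the GFP IPs, 1.33 and 1.37 in the PABP1 IPs and -0.32, -0.33 and -1.07 in the Inputs. It rose by 1.92 in the PABP1 IPs over Input (SE 0.25, adjusted p = 0.0005181), and its GFP IPs overlapped the Inputs (0.24). A second Rab3d probe, above background on 7 arrays, gave 0.37 for the PABP1 IPs over Input and -1.23 for the GFP IPs over Input. Rab37 stood at -3.53, -3.84 and -3.46 in the GFP IPs, -1.82 and -1.74 in the PABP1 IPs and -2.39, -2.48 and -2.62 in the Inputs. Its groups did not overlap, with -1.11 for GFP (SE 0.14, adjusted p = 0.0003962) and 0.71 for PABP1 (SE 0.15, adjusted p = 0.005586) over Input. Rab3a and Rab3b, of synaptic and secretory vesicles, rose by 0.96 and 1.52 in the PABP1 IPs and were not called in the GFP IPs (-0.13 and -0.10), while Rab26 rose by 1.16 in the PABP1 IPs and fell by 0.55 in the GFP IPs.

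Of 5 tested Rabs of autophagy and lysosome-related organelles, 1 rose and 3 fell in the GFP IPs over Input (21.5% and 43.3% of all genes). In the PABP1 IPs over Input 4 rose (34.3% of all genes), and 4 were lower in the GFP IPs than in the PABP1 IPs (47.4%). These counts hold 2 members that entered the tests only through the group in which they were high. Rab39, through the GFP IPs, is the 1 that rose there, and Rab32, through the PABP1 IPs, is among both counts of 4. Rab38, which delivers pigment enzymes to melanosomes, stood at -1.63, -1.68 and -1.71 in the GFP IPs, 0.68 and 0.55 in the PABP1 IPs and -1.15, -1.41 and -1.43 in the Inputs. The PABP1 IPs stood alone at the top, 3.85-fold over Input (1.94, SE 0.13, adjusted p = 3.797e-05) and with a gap of -2.29 for the GFP IPs against them (SE 0.13, adjusted p = 1.304e-05). The difference of -0.34 between the GFP IPs and the Inputs (adjusted p = 0.03916) turned to 0.19 with arrays scaled to their median. Its relative Rab32 stood at -4.94, -3.88 and -3.97 in the GFP IPs, -3.25 and -2.64 in the PABP1 IPs and -4.21, -3.98 and -4.95 in the Inputs. It was above background on 1 GFP IP, both PABP1 IPs and no Input, and was at least 1.33-fold higher in the PABP1 IPs than in the Inputs (limma adjusted p = 0.02069). Rab39 stood at -2.63, -2.68 and -2.25 in the GFP IPs, -4.29 and -2.79 in the PABP1 IPs and -4.80, -5.42 and -3.33 in the Inputs. It was above background on all GFP IPs and on 1 array of each other group, and so entered the tests through the GFP IPs alone. Its measured difference of 2.00 over Input had a wide SE of 0.58 (adjusted p = 0.01948) and includes 2 Inputs that were not well above background. Rab24, of autophagy, and Rab7l1, the array's name for Rab29, fell by 0.57 and 0.64 in the GFP IPs and rose by 0.36 and 0.60 in the PABP1 IPs over Input. The rise was lost in 15 of 21 alternative settings for Rab24 and in 10 for Rab7l1, the replicate block and slide 2 alone among them for both.

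Of the 3 tested Rabs linked to the cilium, Rab28 stood at 1.06, 0.92 and 0.92 in the GFP IPs, 1.98 and 1.86 in the PABP1 IPs and -0.71, -0.74 and -0.39 in the Inputs. Both IPs lay above the Inputs, 2.99-fold for GFP (1.58, SE 0.13, adjusted p = 8.155e-05) and 5.78-fold for PABP1 (2.53, SE 0.15, adjusted p = 2.379e-05). Rab34, which acts early in building the cilium, stood at 3.27, 3.17 and 3.00 in the GFP IPs, 5.14 and 4.87 in the PABP1 IPs and 4.29, 4.24 and 3.98 in the Inputs. The Inputs lay between the IPs, with -1.02 for GFP (SE 0.14, adjusted p = 0.0007267) and 0.84 for PABP1 (SE 0.16, adjusted p = 0.003265). Rab23, an inhibitor of hedgehog signalling, fell by 0.40 in the GFP IPs (adjusted p = 0.02516) and was not called in the PABP1 IPs (0.00). Its GFP value turned to 0.13 with arrays scaled to their median and to 0.85 with the mean of all its probes, and was lost in 12 other settings. Rab40c, a Rab with a SOCS box that recruits a ubiquitin ligase, stood at 4.08, 3.76 and 3.90 in the GFP IPs, 4.71 and 4.58 in the PABP1 IPs and 4.23, 4.25 and 4.30 in the Inputs. Its differences from Input were narrow, at -0.34 in the GFP IPs (adjusted p = 0.03998), which turned to 0.19 with arrays scaled to their median, and at 0.39 in the PABP1 IPs (adjusted p = 0.04007).

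**Figure D3:**
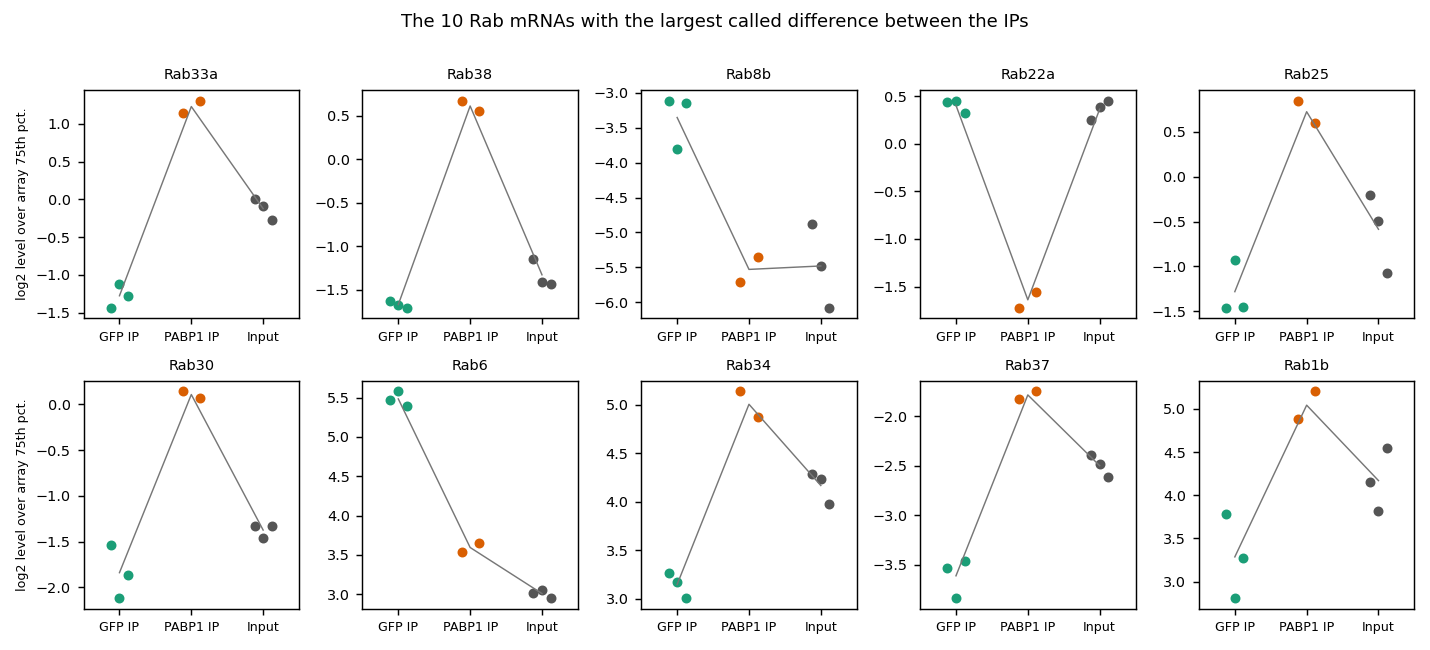
Log2 level over the array's 75th percentile (y axis, a scale of its own for each gene) on each array for the 10 Rab mRNAs with the largest called difference between the IPs; points are arrays and lines join group means. Rab8b, Rab22a and Rab6 are higher in the GFP IPs, and Rab33a, Rab38, Rab25, Rab30, Rab34, Rab37 and Rab1b in the PABP1 IPs. The 10 were picked by this difference, so the lack of overlap between their IPs (80.7% of all genes) is no separate result. A further Rab22a probe above background on all arrays gave -1.69, against 2.04 with the probe used. Rab8b stands here by its measured signal, which was not well above background in the PABP1 IPs, and its bound is 0.66.

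Close relatives within the family were set against each other array by array. In the 8 pairs compared, both members were detected on all arrays. For each array the level of the second gene was subtracted from that of the first, and the groups were compared by exact two-sided permutation. With 3 arrays against 3 or 2, no p below 0.1 can be reached, and the lowest p adjusted over the 8 pairs was 0.1333. The groups did not overlap for 6 of 8 pairs when the GFP IPs were set against the Inputs, for 6 when the PABP1 IPs were, and for 7 between the IPs, beside 69.3%, 70.8% and 80.7% of single genes. Other gene pairs were not analysed here, and no pair passed the test. Both members of a pair were called, in opposite directions, in 1, 1 and 4 pairs. Of single genes, 64.7%, 59.6% and 71.4% were called in either direction, and the share among other pairs is not known. For the GFP IPs over Input the pair was Rab1 and Rab1b, and the Rab1b call was lost in 9 of 21 alternative settings. For the PABP1 IPs over Input it was Rab6 and Rab6b. Between the IPs, Rab2 was lower by the probe used (-0.67), while its second probe gave 0.82.

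Rab1 and Rab1b gave the widest contrast. Rab1b stood at 3.78, 2.81 and 3.27 in the GFP IPs, 4.88 and 5.21 in the PABP1 IPs and 4.15, 3.81 and 4.54 in the Inputs. It was thus lowest in the GFP IPs where Rab1 was highest. It differed by -0.88 in the GFP IPs over Input (SE 0.29, adjusted p = 0.03022) and by -1.76 in the GFP IPs over the PABP1 IPs (SE 0.32, adjusted p = 0.002116). The difference between the relatives was 3.95 in the GFP IPs over Input, a 15.4-fold unequal change, and 3.18 in the GFP IPs over the PABP1 IPs (exact permutation p = 0.1 for each). For the PABP1 IPs over Input it was 0.76 (exact permutation p = 0.2).

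Rab11a stood at 2.69, 2.86 and 2.71 in the GFP IPs, 3.98 and 3.84 in the PABP1 IPs and 2.36, 2.57 and 2.40 in the Inputs. It was highest in the PABP1 IPs where Rab11b, by the probe used, was highest in the GFP IPs. Rab11b minus Rab11a differed by 1.88 in the GFP IPs over Input and by -0.56 in the PABP1 IPs over Input. It differed by 2.45 in the GFP IPs over the PABP1 IPs, without overlap in any of the 3. A second Rab11b probe, above background on all arrays, gave 1.75 in the PABP1 IPs over Input, beside 1.47 for the Rab11a probe used. The sign of the -0.56 therefore rests on the probes. Between the IPs the second Rab11b probe gave 0.31, with overlap. Rab6b, the Rab6 relative enriched in brain, stood at 1.00, 0.68 and 0.81 in the GFP IPs, -0.40 and -0.02 in the PABP1 IPs and 0.38, 0.52 and 0.72 in the Inputs. It fell by 0.75 in the PABP1 IPs over Input (SE 0.18, adjusted p = 0.009208), a call lost with the mean of its probes and with arrays scaled to their median. A second Rab6b probe, above background on 7 arrays, gave 0.69 there. Rab6 minus Rab6b differed by 2.18 in the GFP IPs over Input and by 1.34 in the PABP1 IPs over Input.

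Rab5a and Rab5c both direct early endosome fusion. Rab5a stood at 3.49, 3.82 and 3.58 in the GFP IPs, 2.87 and 2.74 in the PABP1 IPs and 2.73, 2.58 and 2.21 in the Inputs. Rab5c stood at 3.81, 3.79 and 3.63 in the GFP IPs, 4.90 and 4.66 in the PABP1 IPs and 3.99, 3.91 and 3.62 in the Inputs. Rab5a rose in the GFP IPs over Input (1.12, SE 0.17, adjusted p = 0.001016) and Rab5c in the PABP1 IPs over Input (0.94, SE 0.16, adjusted p = 0.001845). Rab5a minus Rab5c differed by 1.22 in the GFP IPs over Input and by -0.65 in the PABP1 IPs over Input. The sign of the latter rests on the probe, as a second Rab5a probe, above background on 7 arrays, gave 2.52 there. The Rab5a probe used was printed on 10 spots of each array, and the SD over these spots was 0.05 to 0.08. This SD does not cover the gap between probes.

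Rab31 and Rab22a form a subfamily of early endosomal Rabs. Rab31 stood at 0.70, 0.90 and 0.78 in the GFP IPs, -0.10 and -0.13 in the PABP1 IPs and -0.08, -0.20 and -0.57 in the Inputs. Rab22a stood at 0.44, 0.45 and 0.33 in the GFP IPs, -1.72 and -1.55 in the PABP1 IPs and 0.25, 0.38 and 0.45 in the Inputs. Rab31 rose in the GFP IPs over Input (1.08, SE 0.15, adjusted p = 0.0007221), and Rab22a fell in the PABP1 IPs over Input (-2.00, SE 0.13, adjusted p = 2.895e-05) with the GFP IPs among the Inputs (0.04, SE 0.11). This Rab22a value rests on its probe. A further probe above background on all arrays gave 1.59 for the PABP1 IPs over Input. Between the IPs the further probe gave -1.69 and the probe used gave 2.04.

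Rab2, the array's name for Rab2a, stood at 4.12, 4.26 and 4.18 in the GFP IPs, 4.97 and 4.75 in the PABP1 IPs and 3.53, 3.59 and 3.49 in the Inputs. It rose by 0.65 in the GFP IPs (SE 0.11, adjusted p = 0.001894) and by 1.32 in the PABP1 IPs (SE 0.13, adjusted p = 0.0001228). Rab2b minus Rab2 differed by 1.89 in the GFP IPs over Input and, with overlap, by -0.14 in the PABP1 IPs over Input. A second Rab2 probe above background on all arrays gave 2.90 for the GFP IPs over Input, more than the 2.54 of Rab2b, so the order within this pair rests on the probe. The arrays overlapped in all 3 comparisons for Rab4a and Rab4b, with 0.14 in the GFP IPs over Input (exact permutation p = 0.7). For Rab3d and Rab3a the arrays overlapped in the GFP IPs over Input (0.37, exact permutation p = 0.3) and not in the PABP1 IPs over Input (0.96, exact permutation p = 0.1). These Rab3d values rest on the probe used, as a second Rab3d probe differed by 0.37 in the PABP1 IPs over Input. Rab3a stood at 2.21, 1.96 and 2.01 in the GFP IPs, 3.18 and 3.11 in the PABP1 IPs and 2.32, 2.17 and 2.06 in the Inputs.

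**Figure D4:**
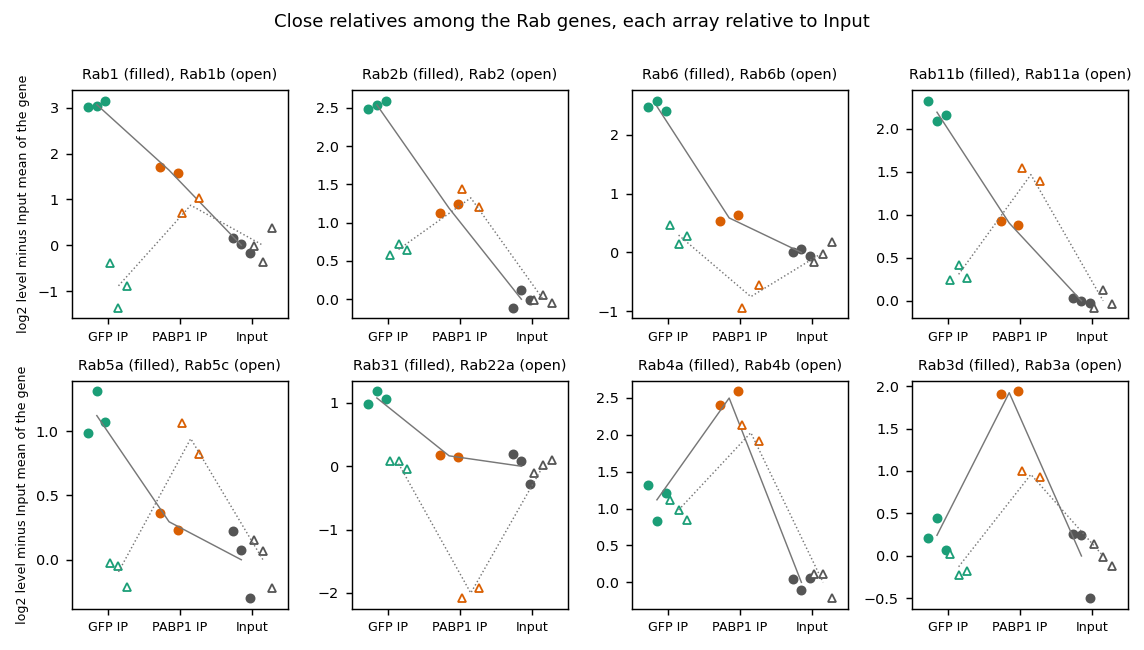
Log2 level of each array minus the gene's own Input mean (y axis) for 8 pairs of close Rab relatives, with the first gene as filled circles and the second as open triangles; points are arrays and lines join group means. Rab1 and Rab1b are farthest apart in the GFP IPs over Input, at 3.07 and -0.88, and Rab4a and Rab4b run together. By the probes used, Rab11b and Rab11a, and Rab5a and Rab5c, change order between the IPs. Second probes of Rab11b and Rab5a gave 1.75 and 2.52 in the PABP1 IPs over Input, so this change of order rests on the probes.

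The other probes of the same Rab genes show how far a value holds beyond a single probe; where each probe lies in its transcript was not analysed here. Other probes above background on all arrays were compared for the genes that were called. Their sign was that of the probe used in 9 of 11 cases for GFP IP over Input, in 10 of 13 for PABP1 IP over Input and in 10 of 15 between the IPs. The median gap between the probes' differences was 0.54, 0.84 and 0.56. For the mRNAs that led the GFP IPs over Input the second probe was higher in the GFP IPs too. It gave 3.05 for Rab1, 3.02 for Rab6, 2.05 for Rab11b and 3.00 for Rab18, beside 3.07, 2.48, 2.19 and 2.17. The values were close for Rab1 and Rab11b and farther apart for Rab6 and Rab18. The second probe of Rab2b, above background on 5 arrays, gave 2.21. For Rab1b, Rab8a and Rab11a the second probes gave -0.43, -0.33 and 0.14, beside -0.88, -1.13 and 0.31, and all 3 kept a lower level in the GFP IPs than in the PABP1 IPs (-2.13, -1.37 and -1.90).

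Probes disagreed for several members. Another Rab10 probe gave 1.35 for the GFP IPs over Input and -0.36 for the PABP1 IPs over Input, where the probe used gave 0.13 and 1.22. A second Rab23 probe gave 1.92 for the GFP IPs over Input, where the probe used gave -0.40. A second Rab34 probe gave 0.21 and 2.07 for the 2 IPs over Input, beside -1.02 and 0.84, although the gap between the IPs was -1.85 with the second probe and -1.86 with the probe used. The second Rab5a probe, above background on 7 arrays, gave 3.19 and 2.52, beside 1.12 and 0.30. For Rab12 and Rab14 the second probes gave -0.33 and 0.47 in the PABP1 IPs over Input, beside 0.93 and -0.12. Averaging all probes of a gene turned the sign of a called value for Rab8b, Rab21, Rab2 and Rab23 between the IPs (-0.061, 0.041, 0.072 and 0.38). It did so for Rab40c and Rab23 in the GFP IPs over Input (0.097 and 0.85) and for Rab12 in the PABP1 IPs over Input (-0.22).

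**Figure D5:**
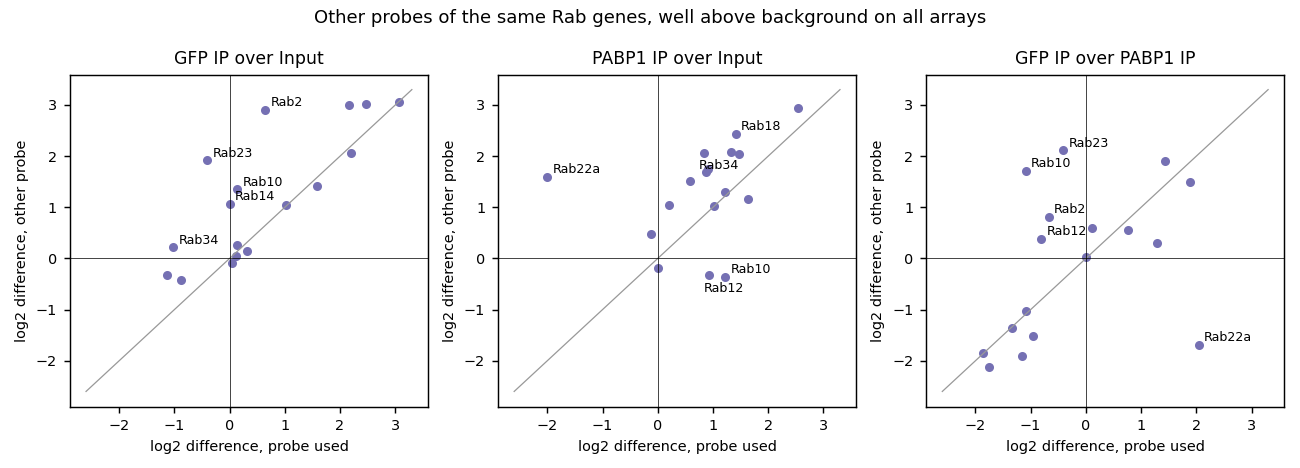
Difference in mean log2 level by each further probe above background on all arrays (y axis) against the probe used for the same Rab gene (x axis), in the 3 comparisons, with the line of equal values; probes more than 1 apart are named. Rab1, Rab6, Rab11b and Rab18 lie at the upper right for the GFP IPs over Input, and Rab22a lies far from the line in the other 2 panels, at -2.00 against 1.59 and at 2.04 against -1.69.

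The authors' deposited table of 1 intensity per group could be set beside these values for 23 Rab genes with a single row. The median log2 ratio of the group values in the authors' deposited table was 0.52 between GFP IP and Input, 1.39 between PABP1 IP and Input and -0.64 between GFP IP and PABP1 IP. The values computed here for these 23 genes had medians of -0.02, 1.31 and -1.09, and their signs matched the authors' deposited table for 15, 23 and 23 genes. Over the 10059 genes that could be matched, the median for GFP IP over Input was -0.01 in the authors' deposited table and -0.57 here, so the zero points differ. How the authors' deposited table was averaged and scaled is not stated.

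Beside the Rabs, 131 names of their regulators and effectors were listed, of which 105 were on the array and 85 were tested; the list was drawn up with earlier results of these data known. Unlike the Rabs, most of these mRNAs did not rise in the PABP1 IPs: 12 rose and 40 fell, with a median difference of -0.53, where 34.3% of all tested genes rose and 25.3% fell. In the GFP IPs over Input 16 rose and 37 fell, close to the shares of all tested genes (21.5% and 43.3%). Their median of -0.46 was close to the -0.51 of all genes (0.075 and 0.024 with arrays scaled to their median). Between the IPs 32 were higher and 25 lower in the GFP IPs, beside 23.9% and 47.4% of all genes, with a median of 0.06 against -0.67.

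By class, effectors such as tethers and motors stood lowest in the PABP1 IPs, where of 27 none rose by limma and 20 fell, with a median of -0.76. Across all tested genes 34.3% rose and 25.3% fell in the PABP1 IPs over Input. Golga2, a Golgi tether, fell by 2.16. Myo5a, the motor that Rab27a recruits to melanosomes, fell by 1.94. Eea1, the tether that Rab5 recruits to early endosomes, fell by 0.93. Of 26 GEFs 4 rose and 10 fell in the PABP1 IPs over Input, and of 25 GAPs 4 rose and 9 fell. The 7 genes of lipid anchoring, escort and GDI counted 4 higher and 1 lower in the PABP1 IPs over Input. Rabif, a small Rab-binding protein, rose by 2.45, Rabggtb, a subunit of the geranylgeranyl transferase, by 1.86, and Rabac1 by 0.87. Chm, which encodes an escort protein, was the member of that class that fell. It stood at -0.45, 0.33 and 0.27 in the GFP IPs, -2.78 and -1.76 in the PABP1 IPs and 0.51, 0.45 and 0.43 in the Inputs (-2.73 for the PABP1 IPs over Input, adjusted p = 0.0004095).

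In the GFP IPs, GEFs and GAPs held the regulators that rose most. Evi5, described as a Rab11 GAP, stood at 2.25, 2.31 and 2.29 in the GFP IPs, -0.59 and -0.48 in the PABP1 IPs and 0.04, 0.04 and -0.08 in the Inputs. It was 2.28 above Input (SE 0.10, adjusted p = 1.464e-05) and 2.81 above the PABP1 IPs (SE 0.11, adjusted p = 9.319e-06). The DENN-domain genes St5 and Dennd2c rose by 2.34 and 1.99 over Input and by 2.51 and 2.61 over the PABP1 IPs, and Tbc1d15, a Rab7 GAP, rose by 1.90 over Input. Exoc6, a subunit of the exocyst, was 2.72 higher in the GFP IPs than in the PABP1 IPs (SE 0.15, adjusted p = 1.103e-05), and Tbc1d7 was 2.34 lower (-2.34, SE 0.53, adjusted p = 0.005615). Among those that fell in the GFP IPs over Input, Madd, a Rab3 and Rab27 GEF, fell by 1.94 (adjusted p = 3.978e-05), and Rims1, a Rab3 effector, by 2.90 with a wide SE of 0.86 (adjusted p = 0.02087). In the PABP1 IPs over Input the GAPs Tbc1d16 and Tbc1d5 fell by 2.10 and 1.96.

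Of the 7 Rab genes that were not tested, Rab27b, Rab36, Rab39b, Rab3c, Rab40b and Rab9b were well above background on no array, and Rab5b on 2 GFP IPs, 1 PABP1 IP and no Input. Their levels are not resolved on these arrays, which does not show that the genes are silent. RefSeq accessions matched 53 of the 55 members, and 5 probes that carry other names on the array belong, by accession, to Rab7b and Rab43 and are not counted here.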

How the data were processed

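Each of the 8 samples was hybridised to a 1-colour Agilent array (design 014868, Cy3). Per the file headers, the deposited intensity is the background-subtracted output of Feature Extraction 9.1.3.1 (protocol GE1-v5_95_Feb07). Flags per spot, which are other values than brightness, stand in the same files of the authors, who also deposited an intensity per group; how it was averaged is not stated. Here log2 of the processed intensity minus the 75th percentile of each array was used. Spots of a probe were averaged, 30 probes with an outlier flag were left out (0 of them Rab probes), no Rab spot was saturated, and genes well above background on every array of a group were tested (14745).

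The model was limma 3.58.1 (R 4.3.3, with the data.table package at 1.17.8) over all 8 arrays, with 5 residual and 2.10 prior degrees of freedom, two-sided, adjusted by Benjamini-Hochberg at 0.05. Figures used matplotlib 3.10.9 in Python 3.11.15. The fit was tested on simulated data. Names were checked through RefSeq of GRCm38.p6. Arrays lay on 2 slides, each with all 3 groups. Full values are given for up to 10 called members with the largest difference in each comparison and for close relatives, and for up to 6 regulators; a few further genes were chosen after their values were seen. Members and lists were chosen with earlier results of these data known. Alternatives changed the scaling, background correction, filter, probe choice, slide, replicate block, weights and arrays left out. The number of arrays limits the precision. The value of 1 regulator gene is not reported here.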

Additional observations from a re-analysis of the deposited data

Results flagged for a closer look

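Rab5b, a relative of the early endosome Rabs Rab5a and Rab5c, was left out of the tests because it was not well above background on every array of a group, yet 3 IP arrays carried it well above background, 2 GFP IPs and 1 PABP1 IP, where no Input did. Its level was -3.76, -3.63 and -3.61 in the GFP IPs, -3.71 and -3.99 in the PABP1 IPs and -4.73, -3.82 and -4.78 in the Inputs. Another of its probes was above background on 1 PABP1 IP and 1 Input, and the last on no array. The signal is drawn to attention because it lies outside the tested genes, and no difference was tested.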

How the results depend on the processing

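Values are counts of members higher and lower, or medians. For the GFP IPs over Input, scaling to the median gave 30 and 3 Rab mRNAs with a median of 0.65, and normexp background correction gave 5 and 0 (4.04% and 6.55% of all genes). The number lower was 8 with the 75th percentile over detected probes (median 0.28) and 8 with quantile normalization (0.32), beside 37.4% and 35.6% of all genes. It was 9 with centring and 6 with no filter on dim probes, beside 39.5% and 23.2%. For the PABP1 IPs over Input, normexp gave 12 and 1 (11.2% and 4.4% of all genes), and the 75th percentile over detected probes a median of 0.73. The number lower was 1 with scaling to the median and 1 with the mean of probes, beside 21.6% and 23.2% of all genes. Between the IPs normexp gave 1 and 14 (7.61% and 21.1% of all genes) with a median of -0.79, and the median was -0.48 with scaling to the median, -0.54 with the 75th percentile over detected probes and -0.60 with quantile normalization. Relative to the median gene the Rab medians kept their sign in all of these.

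Leaving out each array in turn gave, for the Rabs, 7 to 12 lower in the GFP IPs over Input (7 without GFP IP 3, and 8, 8 and 9 without Input 1, Input 2 and GFP IP 2), 1 to 2 lower in the PABP1 IPs over Input (1 without PABP1 IP 1), and counts within 1.5 times otherwise, with a lone array assumed to vary like the rest. For regulators it gave medians of -0.51 to -0.31 in the GFP IPs over Input and 21 to 32 higher between the IPs (21 without PABP1 IP 1).

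For regulators and effectors in the GFP IPs over Input, scaling to the median gave 18 lower and a median of 0.075, the 75th percentile over detected probes -0.30, quantile normalization -0.31, slide 1 alone -0.33, and normexp 4 and 4 with -0.20. In the PABP1 IPs over Input, the 75th percentile over detected probes gave -0.77, slide 2 alone -0.41, and normexp 3 and 6 with -0.30. Between the IPs, scaling to the median gave 13 lower and 0.52, the 75th percentile over detected probes 0.46, quantile normalization 16 lower and 0.26, centring 0.17, no filter on dim probes -0.096, and normexp 9 and 5.

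Signs turned for Rab38 (0.19), Rab30 (0.069), Rab5c (0.44), Rab35 (0.51), Rab23 (0.13) and Rab40c (0.19) in the GFP IPs over Input and Rab23 between the IPs (0.051) with scaling to the median. With the mean of probes they turned for Rab40c (0.097), Rab23 (0.85) and Rab14 (-0.93) in the GFP IPs over Input, for Rab12 in the PABP1 IPs over Input (-0.22), and for Rab8b (-0.061), Rab21 (0.041), Rab2 (0.072) and Rab23 (0.38) between the IPs. They also turned for Rab8b within slide 2 (0.73) and Rab32 with normexp (-0.080) in the PABP1 IPs over Input; the cause was not tested. With the replicate number as a block, 16 and 14 Rab mRNAs were higher and lower in the GFP IPs over Input (21.3% and 43.1% of all genes). The counts were 32 and 2 in the PABP1 IPs over Input (32.4% and 25.1%) and 11 and 32 between the IPs (23% and 43.8%). Deviations from the group mean correlated at -0.74 to 0.62 between same-numbered arrays of different groups. These deviations correlated at 0.44 to 0.77 between arrays on the same slide and at -0.77 to -0.29 between arrays on different slides. Replicate number and slide are mixed in these values, so whether same-numbered arrays share a culture cannot be told. Of the called Rab values, 5 of 32, 10 of 37 and 11 of 44 were kept in all 21 alternatives, among them Rab1, Rab2b, Rab6, Rab11b and Rab18 for the GFP IPs over Input.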
